A study of Homo sapiens with 6 samples.

Results

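The genes described here encode the enzymes, transporters and regulators of glycolysis together with genes known to respond to hypoxia. The members were 39 named genes, and each was read from a probe set whose annotation names that gene alone. Such a probe set was found for 35 of the 39 genes, of 18377 genes measured in this way in all. They comprised 14 glycolytic enzymes, 18 other genes known as targets of the hypoxia-inducible factors (HIF) and 3 genes that encode HIF subunits. PGAM1, a phosphoglycerate mutase, shares its 5 probe sets with PGAM4 and was left out. The lactate carriers SLC16A1 and SLC16A3 and the carbonic anhydrase CA9 were not analysed here. Total RNA was measured on Affymetrix HuGene ST arrays, with 3 arrays labelled HEK-BAHD1 and 3 labelled HEK-CT. HEK293 is an established human embryonic kidney cell line. The HEK-BAHD1 line carries, by its label, BAHD1 cDNA driven by a CMV promoter at a single integration site, and BAHD1 is a protein that represses genes through heterochromatin. The HEK-CT line carries an out-of-frame β-galactosidase sequence at that position by its label, and an empty vector by the study's supplement. Both lines were grown under hygromycin selection, and each was a stable pool of transfectants grown in separate flasks, so a p-value here reflects only how cultures of a single pool varied. The supplement gives the same passage for the control line and a HEK-BAHD1 replicate 1, and a later passage for a HEK-BAHD1 replicate 2. It gives no passage for a replicate 3, and the array titles give none.

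Glycolysis converts glucose to pyruvate. Hexokinases trap glucose in the cell, phosphofructokinases set the committed step, and lactate dehydrogenases turn pyruvate into lactate when it is not oxidized in mitochondria. When oxygen is low, prolyl hydroxylases no longer mark the HIF-alpha subunits for degradation. The stabilized alpha subunit then pairs with ARNT and activates genes for glucose uptake, glycolysis, vessel growth and mitochondrial turnover. Several glycolytic enzymes are themselves HIF targets, so the classes overlap in function. Tumor-derived and transformed lines, HEK293 among them, commonly run glycolysis at a high rate in the presence of oxygen.

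BAHD1 itself ran against the labels. The 3 arrays labelled HEK-BAHD1 gave it a log2 signal of 6.75, 7.0 and 6.76, against 10.06, 9.81 and 9.93 for those labelled HEK-CT. All directions below follow the deposited labels, and exchanging the labels would turn all of them round. Markers of HEK293 cells (PAX2, LHX1, KRT8, KRT18, VIM, NEFM and NEFL) averaged 8.57 to 8.60 on the arrays labelled HEK-BAHD1 and 8.43 to 8.49 on those labelled HEK-CT. NEFM and NEFL were called higher and VIM lower. The 13 measured markers of fibroblasts, blood, endothelium and hepatocytes averaged 4.36 to 4.41 on the arrays labelled HEK-BAHD1 and 4.33 to 4.37 on those labelled HEK-CT, where array medians were 5.46 to 5.56, and none of the 13 was called by limma or by the LPE test, which pools the error of probe sets of like intensity (without adjustment, p was under 0.05 for 1 higher and 1 lower marker). The array values are relative to all RNA on an array, so that a change in part of the cells and a change in RNA per cell cannot be told apart.

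On the arrays labelled HEK-BAHD1, 9 of the 35 measured genes were higher and 2 were lower, and 24 were not called. A gene was called at an adjusted p under 0.05 (limma, with the Benjamini-Hochberg adjustment over all 21062 tested probe sets) and group medians more than 0.2 apart on the log2 scale. The 9 higher genes encode the hexokinase HK2, the phosphofructokinases PFKM and PFKP, the regulatory kinases PFKFB3 and PDK1, and the hypoxia-induced products of BNIP3, NDRG1, MXI1 and DDIT4. The 2 lower genes were SLC2A3, a glucose transporter, and ADM, which encodes the vasodilator peptide adrenomedullin. Thus 31.4% of the members were called, against 13.2% of all tested probe sets. By direction, the share over all tested probe sets was 6.79% for higher calls and 6.39% for lower calls. For 20 of the 35 members, or 57.1%, the groups did not overlap, against 33.6% of all tested probe sets. The log2 difference ranged from -0.41 to 0.52, with a median of 0.09, against a median of 0.0033 over all tested probe sets. A member's difference was thus small on the linear scale, and the highest of the 35 corresponded to a ratio of 1.44.

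**Figure D1:**
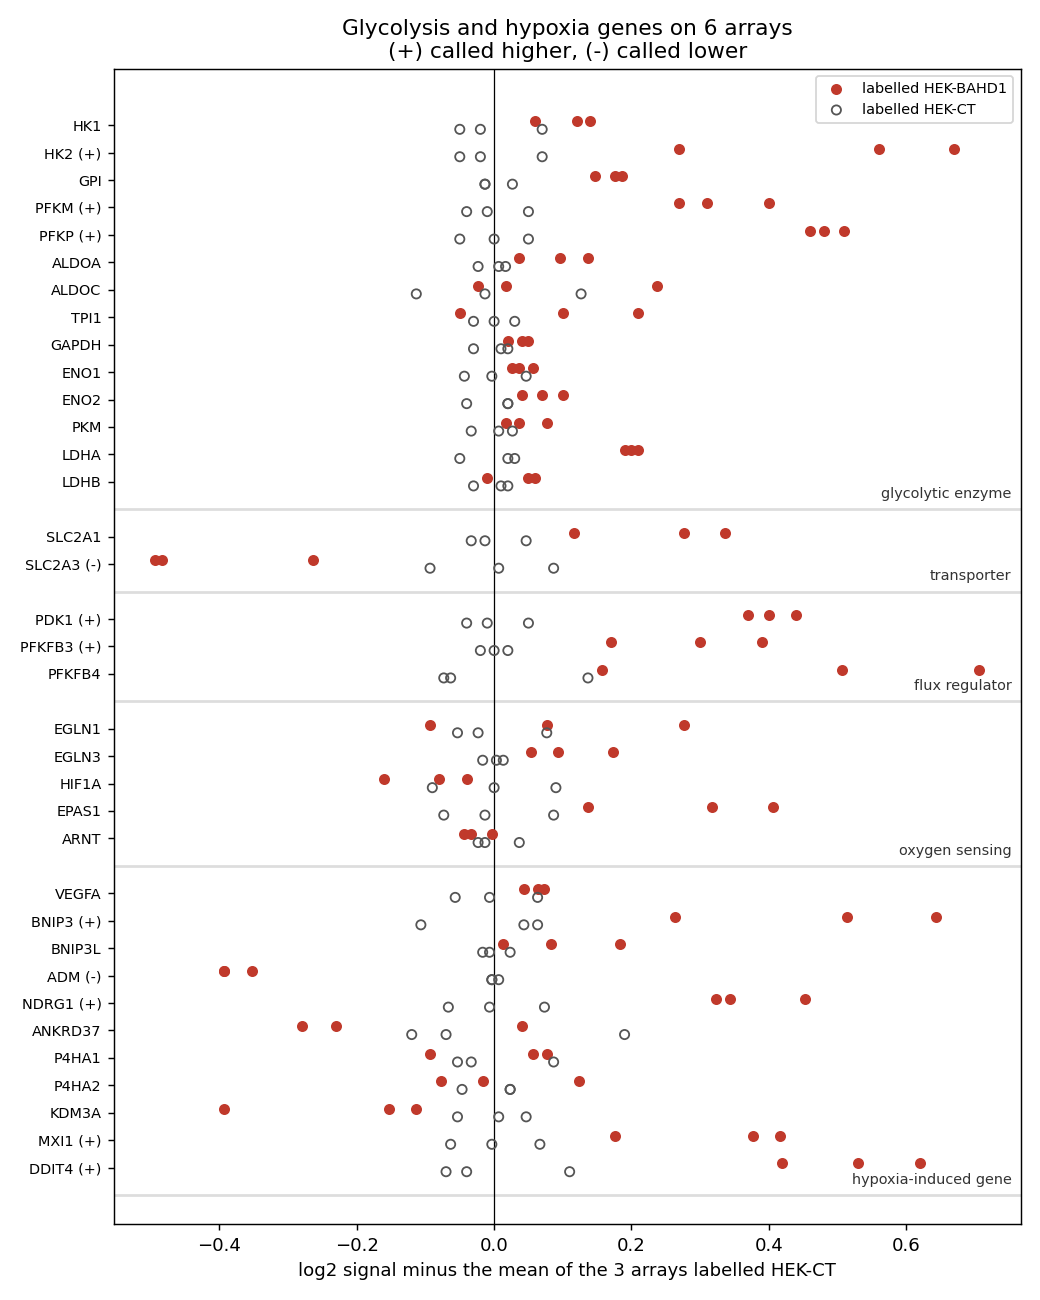
Log2 signal of each measured gene (rows, grouped by role) minus its mean over the 3 arrays labelled HEK-CT (horizontal axis). Each filled point is an array labelled HEK-BAHD1 and each open point an array labelled HEK-CT. The points of PFKP and ADM stand clear of each other on opposite sides, while those of ENO1, HIF1A and P4HA1 overlap.

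Glucose enters the cell through facilitative transporters. SLC2A1 (GLUT1), the widespread basal carrier, had a log2 signal of 9.91, 10.13 and 10.07 on the arrays labelled HEK-BAHD1, against 9.84, 9.78 and 9.76 on those labelled HEK-CT. SLC2A3 (GLUT3), the high-affinity carrier known from neurons, had 8.02, 8.24 and 8.01 on the arrays labelled HEK-BAHD1, against 8.59, 8.41 and 8.51 on those labelled HEK-CT. The groups did not overlap for either gene, and the differences had opposite signs. SLC2A3 was lower, with a log2 difference of -0.41 (standard error 0.082, adjusted p = 0.0182 from limma, a ratio of 0.751). SLC2A1 was not called, with a log2 difference of 0.24 (standard error 0.070, adjusted p = 0.0583 from limma). Both calls changed between alternatives. SLC2A3 was no longer called without HEK-BAHD1 replicate 1 or 3 (adjusted p = 0.0608 and 0.0617) or HEK-CT replicate 1 or 3 (0.0561 and 0.0578), and was kept under the other alternatives. SLC2A1 was called higher under 5 of the 14, without HEK-BAHD1 replicate 1 (adjusted p = 0.0381), after quantile normalization again (0.0349), without the dimmest 30% of probe sets (0.0324), with a trended robust limma fit (0.00828) and by the LPE test (0.000267).

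Hexokinases carry out the entry step of glycolysis. HK2, the hexokinase that HIF and growth signals induce, had a log2 signal of 8.87, 9.27 and 9.16 on the arrays labelled HEK-BAHD1, against 8.55, 8.58 and 8.67 on those labelled HEK-CT. Replicate 1 labelled HEK-BAHD1 was nearest to the arrays labelled HEK-CT, and the groups did not overlap. The log2 difference was 0.50 (standard error 0.10, adjusted p = 0.0202 from limma, a ratio of 1.41). This call was lost without HEK-BAHD1 replicate 2 or 3 (adjusted p = 0.0525 and 0.0705) and without HEK-CT replicate 1 or 2 (0.0612 and 0.0586). HK1, the constitutive hexokinase, had 9.01, 9.03 and 8.95 on the arrays labelled HEK-BAHD1 and 8.96, 8.87 and 8.84 on those labelled HEK-CT. Its groups overlapped, and it was not called (log2 difference 0.11, adjusted p = 0.269 from limma).

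Of the phosphofructokinase genes, PFKP and PFKM were higher on the arrays labelled HEK-BAHD1. PFKL, the liver-type subunit and not a member, was not called, with overlapping groups and a log2 difference of 0.037 (adjusted p = 0.708 from limma). PFKP, the platelet-type subunit, had a log2 signal of 9.79, 9.84 and 9.81 on the arrays labelled HEK-BAHD1, against 9.28, 9.38 and 9.33 on those labelled HEK-CT. Each set of 3 values was tight relative to the gap between the lines, and the log2 difference was 0.48 (standard error 0.054, adjusted p = 0.00235 from limma, a ratio of 1.40). PFKM, the muscle-type subunit, had 9.73, 9.82 and 9.69 on the arrays labelled HEK-BAHD1, against 9.38, 9.41 and 9.47 on those labelled HEK-CT, with a log2 difference of 0.33 (standard error 0.059, adjusted p = 0.0129 from limma). The calls of PFKP and PFKM were kept under all 14 alternatives, the highest adjusted p with 1 array left out being 0.0126 for PFKP and 0.0457 for PFKM. These enzymes are activated by a fructose bisphosphate that the PFKFB enzymes make and break down. PFKFB3, a HIF-induced member of that family, had 7.52, 7.65 and 7.74 on the arrays labelled HEK-BAHD1, against 7.37, 7.35 and 7.33 on those labelled HEK-CT. It was higher by a log2 difference of 0.29 (standard error 0.067, adjusted p = 0.0315 from limma). PFKFB3 was no longer called when any array other than HEK-BAHD1 replicate 1 was left out, with an adjusted p of 0.0827 and 0.0805 without HEK-BAHD1 replicate 2 and 3, and 0.0741, 0.0786 and 0.0961 without HEK-CT replicate 1, 2 and 3. With the replicate number as a block it had an adjusted p = 0.0677 (limma), and with the unnamed probe sets also tested 0.0523. PFKFB4, a related kinase and phosphatase also counted among the HIF targets, had 5.41, 5.96 and 5.76 on the arrays labelled HEK-BAHD1, against 5.18, 5.39 and 5.19 on those labelled HEK-CT. Its log2 difference of 0.46 had a standard error of 0.14 and was not called (adjusted p = 0.0646 from limma). It was called without HEK-BAHD1 replicate 1 (log2 difference 0.61, adjusted p = 0.0194), with the replicate number as a block (adjusted p = 0.035), without the dimmest 30% of probe sets (0.0405), with a trended robust limma fit (0.0273) and by the LPE test (0.0015).

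None of the other enzymes of the pathway was called. The isomerase GPI had a log2 signal of 12.17, 12.20 and 12.21 on the arrays labelled HEK-BAHD1, against 12.05, 12.01 and 12.01 on those labelled HEK-CT. Its groups did not overlap, with a log2 difference of 0.17 (standard error 0.050, adjusted p = 0.0628 from limma). LDHA, the lactate dehydrogenase subunit that favors lactate formation, had 12.39, 12.40 and 12.38 on the arrays labelled HEK-BAHD1, against 12.21, 12.22 and 12.14 on those labelled HEK-CT. Its log2 difference of 0.20 had an adjusted p = 0.043 (limma), but its medians differed by 0.18, short of the threshold. The partner subunit LDHB had a difference of 0.033. The aldolases ALDOA and ALDOC differed by 0.09 and 0.077, the triosephosphate isomerase TPI1 by 0.087, and GAPDH, the dehydrogenase often used as a loading control, by 0.037. The enolases ENO1 and ENO2 differed by 0.04 and 0.07, and the pyruvate kinase PKM by 0.043. The groups did not overlap for ALDOA and ENO2, and overlapped for LDHB, ALDOC, TPI1, GAPDH, ENO1 and PKM. All 14 enzymes had a positive difference as deposited, but with the arrays centred on their medians 11 were positive and 2 negative, and after quantile normalization again 11 were positive and 3 negative, GAPDH and LDHB being negative under both. Centring lowered the median over all tested probe sets as well, to -0.0367.

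The fate of pyruvate is set in part by the pyruvate dehydrogenase kinases, which switch off its entry into mitochondrial oxidation. PDK1, the HIF-induced kinase, had a log2 signal of 9.30, 9.37 and 9.33 on the arrays labelled HEK-BAHD1, against 8.92, 8.98 and 8.89 on those labelled HEK-CT. The values of each line lay close together and the groups stood well apart. PDK1 was higher, with a log2 difference of 0.40 (standard error 0.054, adjusted p = 0.00442 from limma, a ratio of 1.32), and the call was kept under all 14 alternatives. The related kinases PDK2 and PDK3, which are not members, were called higher as well, with log2 differences of 0.40 and 0.28. PDK4, also not a member, was not called, with groups that did not overlap and a log2 difference of 0.23 (adjusted p = 0.0743 from limma).

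**Figure D2:**
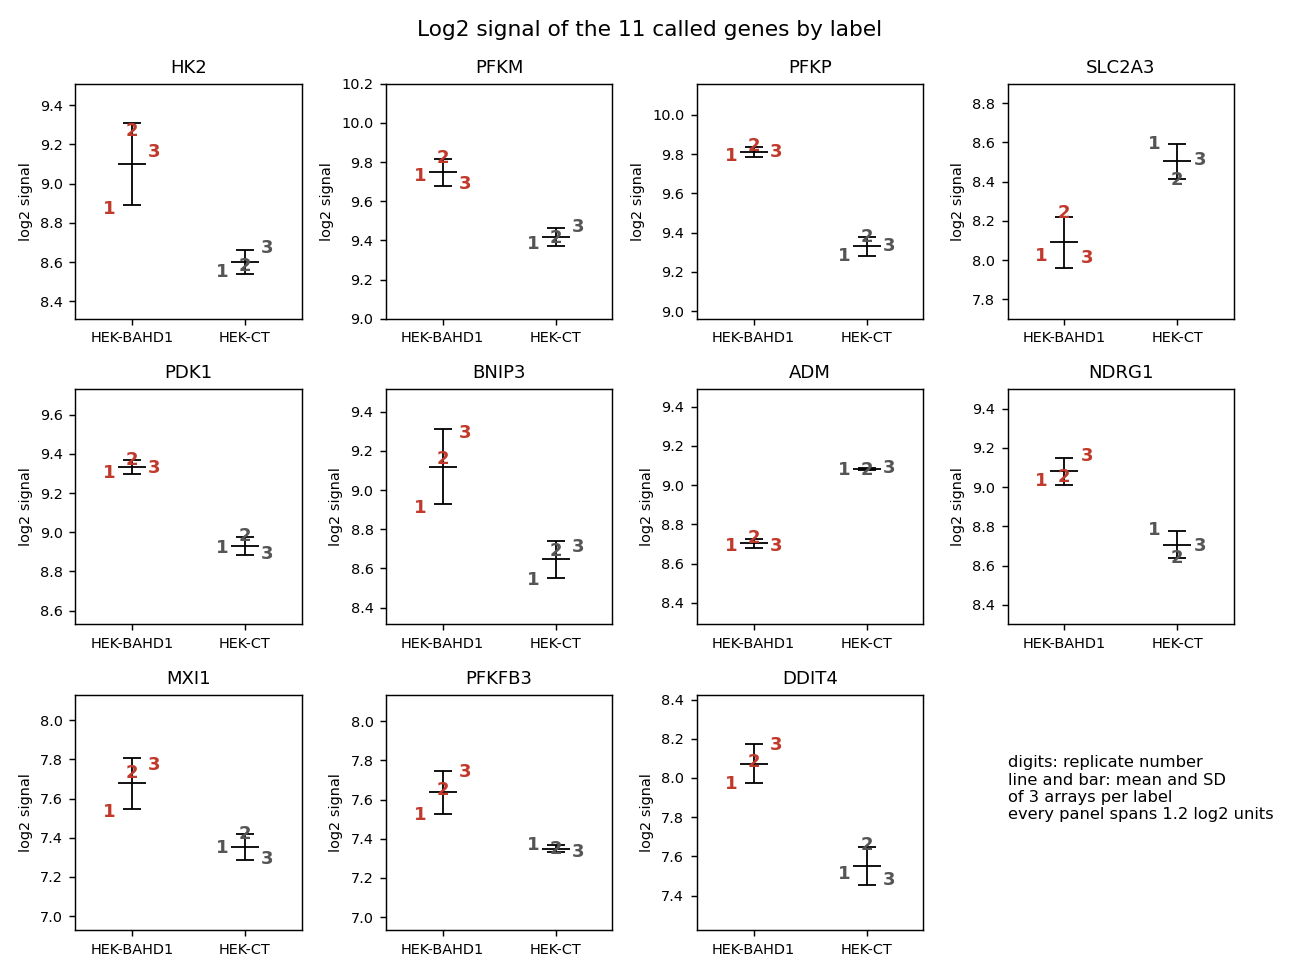
Log2 signal (vertical axis) of the 11 called genes by array label (horizontal axis); the digits are replicate numbers, the dash is the mean of 3 arrays and the bar its SD. In no panel do the labels overlap, and replicate 1 is the lowest of the HEK-BAHD1 digits for HK2, PFKP, PDK1, BNIP3, NDRG1, MXI1, PFKFB3 and DDIT4.

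The 5 measured oxygen-sensing genes gave no call by limma or by the LPE test, and 1 of them, EPAS1, was higher at an unadjusted p under 0.05. Over all tested probe sets limma called 13.2%, so the lack of a call among 5 does not set these genes apart. HIF1A, the oxygen-regulated subunit of wide expression, had a log2 signal of 10.46, 10.42 and 10.34 on the arrays labelled HEK-BAHD1, against 10.41, 10.59 and 10.50 on those labelled HEK-CT. ARNT, the constant partner subunit, had 8.92, 8.89 and 8.88 on the arrays labelled HEK-BAHD1, against 8.96, 8.90 and 8.91 on those labelled HEK-CT. The groups overlapped for both, with log2 differences of -0.09 (standard error 0.066) and -0.03 (standard error 0.051). HIF is controlled mainly by protein stability, which these arrays do not measure. EPAS1 (HIF-2-alpha) had 5.70, 5.88 and 5.97 on the arrays labelled HEK-BAHD1, against 5.49, 5.55 and 5.65 on those labelled HEK-CT. Its groups did not overlap, and its log2 difference of 0.29 was not called (standard error 0.082, adjusted p = 0.0581 from limma). EPAS1 was called higher without HEK-BAHD1 replicate 1 (log2 difference 0.36, adjusted p = 0.0374), with the replicate number as a block (adjusted p = 0.0485) and without the dimmest 30% of probe sets (0.0338). Of the prolyl hydroxylases, EGLN1 had 8.77, 8.94 and 9.14 on the arrays labelled HEK-BAHD1, against 8.84, 8.94 and 8.81 on those labelled HEK-CT. EGLN3 had 7.56, 7.52 and 7.64 on the arrays labelled HEK-BAHD1, against 7.47, 7.48 and 7.45 on those labelled HEK-CT. The groups overlapped for EGLN1 and did not for EGLN3, and neither was called (adjusted p = 0.606 and 0.248 from limma).

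Among the 11 other hypoxia-induced genes, 4 were higher and 1 was lower, beside 6.79% and 6.39% of all tested probe sets. DDIT4 (REDD1), an inhibitor of mTORC1 signaling that energy, p53 and amino acid stress also induce, had a log2 signal of 7.97, 8.08 and 8.17 on the arrays labelled HEK-BAHD1, against 7.51, 7.66 and 7.48 on those labelled HEK-CT. Its log2 difference of 0.52 was the highest of the 35 members (standard error 0.076, adjusted p = 0.00593 from limma). BNIP3, a mitochondrial protein that promotes mitophagy, had 8.91, 9.16 and 9.29 on the arrays labelled HEK-BAHD1, against 8.54, 8.69 and 8.71 on those labelled HEK-CT. The groups did not overlap for either gene. BNIP3 had a log2 difference of 0.47 (standard error 0.10, adjusted p = 0.0236 from limma) and was no longer called without HEK-BAHD1 replicate 2 or 3 (adjusted p = 0.0699 and 0.065) or HEK-CT replicate 1, 2 or 3 (0.0711, 0.0551 and 0.0534). The call of DDIT4 was kept under all 14 alternatives. NDRG1, a differentiation and stress gene, had 9.03, 9.05 and 9.16 on the arrays labelled HEK-BAHD1, against 8.78, 8.64 and 8.70 on those labelled HEK-CT. It was higher by a log2 difference of 0.37 (standard error 0.064, adjusted p = 0.0106 from limma), a call kept under all 14 alternatives. MXI1, a transcription factor that antagonizes MYC, had 7.53, 7.73 and 7.77 on the arrays labelled HEK-BAHD1, against 7.35, 7.42 and 7.29 on those labelled HEK-CT. The log2 difference of MXI1 was 0.32 (standard error 0.077, adjusted p = 0.0332 from limma). Like that of PFKFB3, this call was lost when any array but HEK-BAHD1 replicate 1 was left out, with an adjusted p of 0.0936 and 0.0959 without HEK-BAHD1 replicate 2 and 3, and 0.0861, 0.0564 and 0.105 without HEK-CT replicate 1, 2 and 3. It was also lost with the replicate number as a block (0.059) and with the unnamed probe sets tested (0.0541).

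ADM ran the other way. Its log2 signal was 8.69, 8.73 and 8.69 on the arrays labelled HEK-BAHD1, against 9.08, 9.08 and 9.09 on those labelled HEK-CT. The 3 values of each line nearly coincided, and the log2 difference was -0.38 (standard error 0.049, adjusted p = 0.00392 from limma, a ratio of 0.768), a call kept under all 14 alternatives. VEGFA, the main angiogenic growth factor under HIF control, had 6.96, 6.94 and 6.97 on the arrays labelled HEK-BAHD1, against 6.96, 6.84 and 6.89 on those labelled HEK-CT. Its groups overlapped and it was not called (log2 difference 0.06, standard error 0.055, adjusted p = 0.526 from limma). The histone demethylase KDM3A had 8.08, 8.32 and 8.36 on the arrays labelled HEK-BAHD1, against 8.42, 8.52 and 8.48 on those labelled HEK-CT. Its groups did not overlap, with a log2 difference of -0.22 and no call (adjusted p = 0.123 from limma). ANKRD37, an ankyrin repeat gene, the mitophagy receptor BNIP3L and the collagen prolyl hydroxylases P4HA1 and P4HA2 had log2 differences of -0.16, 0.093, 0.013 and 0.01, with overlapping groups, and that of P4HA1 and of P4HA2 turned negative with the arrays centred on their medians.

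The glycolytic enzymes were set beside the other HIF targets as classes. Of 14 enzymes, 3 were higher and none was lower, so that 21.4% were called. At an unadjusted p under 0.05, 5 were higher and 0 lower, and the LPE test called 3 higher and 0 lower. Of 18 other HIF targets, 6 were higher and 2 lower, so that 44.4% were called. Of all tested probe sets, limma called 13.2%. At an unadjusted p under 0.05, 8 were higher and 3 lower, and the LPE test called 8 higher and 2 lower. Over all tested probe sets, an unadjusted p under 0.05 was found for 14.5% in the higher and 14.8% in the lower direction, and the LPE test called 6.22% higher and 7.36% lower. The gap between the classes changed when an array was left out, and so did the calls over all tested probe sets. With 1 array left out, those over all tested probe sets ranged from 806 to 938 higher and from 581 to 937 lower. With every array they were 1430 and 1345. Of the other HIF targets, 3 were higher and 1 or 2 lower when any array but HEK-BAHD1 replicate 1 was left out, namely HEK-BAHD1 replicate 2 or 3 or HEK-CT replicate 1, 2 or 3, and 8 were higher and 1 lower without HEK-BAHD1 replicate 1. Of the enzymes, 2 or 3 were higher with any array left out. The medians of the log2 difference, 0.0883 for the enzymes and 0.10 for the other targets, were nearly equal. The spread differed, from 0.033 to 0.50 among the enzymes and from -0.41 to 0.52 among the other targets. The members were chosen with results of these arrays known, so the classes are described without a test. With the arrays centred on their medians, the class medians were 0.0483 for the enzymes and 0.06 for the other targets, with the calls unchanged in number at 9 higher and 2 lower. Centring lowered the median over all tested probe sets as well, from 0.0033 to -0.0367.

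**Figure D3:**
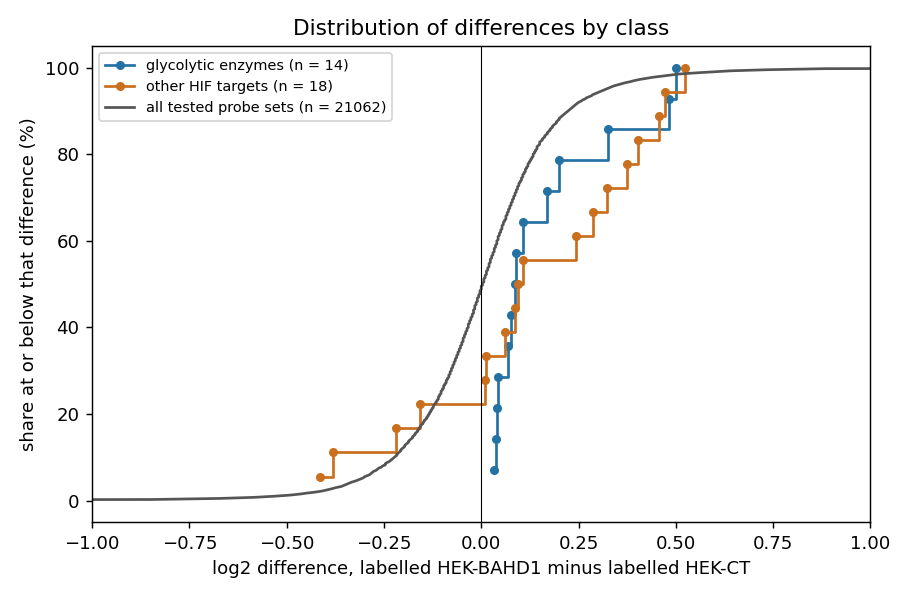
Share of genes (vertical axis, %) at or below a given log2 difference (horizontal axis, HEK-BAHD1 label minus HEK-CT label) for 14 glycolytic enzymes, 18 other HIF targets and all 21062 tested probe sets, of which those beyond the axis are not drawn. The enzymes all lie above 0, most of them below 0.25, and the other HIF targets spread from -0.41 to 0.52.

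Related genes were also compared within arrays. For 11 pairs of related members the gap between the log2 signals of the pair was taken within each array, which cancels any shift shared by that array. The pairs were chosen after their values were seen, and the share of other gene pairs without overlap was not computed. Of single tested probe sets, 33.6% had groups that did not overlap. The gaps of the 2 lines did not overlap in 6 pairs. They differed by 0.66 for SLC2A1 over SLC2A3, the widest of the 11, by 0.39 for HK2 over HK1, and by 0.38 for BNIP3 over BNIP3L and for EPAS1 over HIF1A. Smaller differences of 0.17 and 0.16 were found for LDHA over LDHB and PFKP over PFKM. For each of these 6 pairs the exact permutation test gave a two-sided p = 0.1, the smallest that 3 arrays against 3 allow, and 0.183 after Benjamini-Hochberg adjustment over the 11 pairs, so no pair could pass 0.05. For the pairs of aldolases, enolases, PFKFB enzymes, prolyl hydroxylases and collagen hydroxylases the gaps overlapped, with differences from -0.013 to 0.17.

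**Figure D4:**
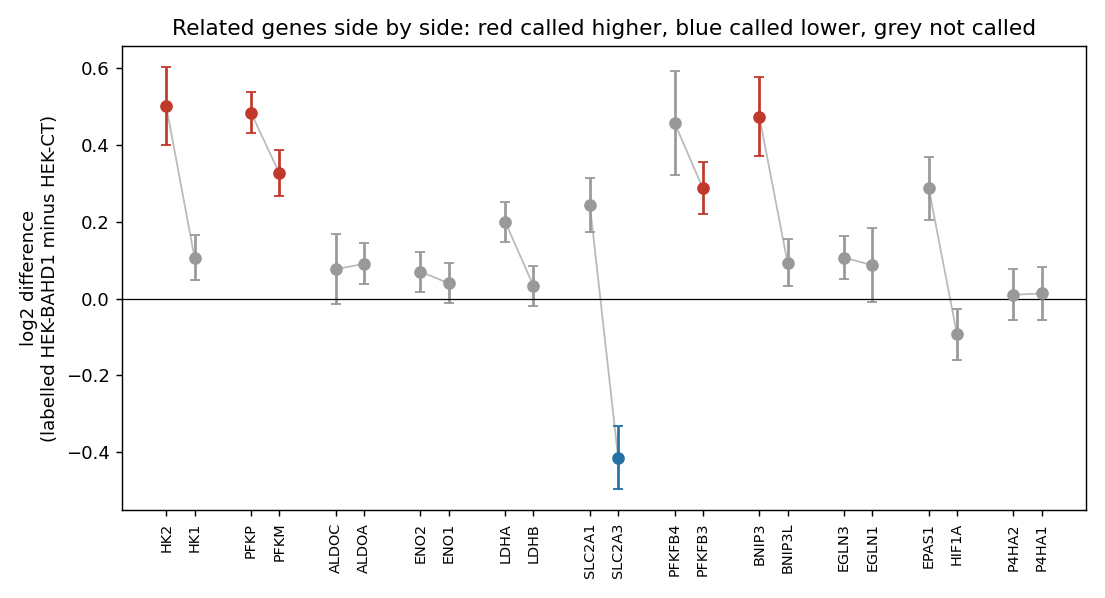
Log2 difference (vertical axis, HEK-BAHD1 label minus HEK-CT label) of both members of 11 related pairs (horizontal axis); the point is the estimate over 3 arrays per line and the bar its standard error. SLC2A1 and SLC2A3 lie on opposite sides of 0, at 0.24 and -0.41, while the ALDO, ENO, EGLN and P4HA pairs lie together.

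The arrays labelled HEK-BAHD1 were not alike for these genes. Replicate 1 was the lowest of the 3 for 23 of the 35 members, or 65.7%, against 36.5% of all tested probe sets, and for 8 of the 9 genes called higher. Replicate 2 was the lowest for 3 members and replicate 3 for 8, with a tie for ADM. Over the 9 genes called higher, the median distance from the mean of the arrays labelled HEK-CT came to 0.31 on replicate 1, 0.44 on replicate 2 and 0.45 on replicate 3 labelled HEK-BAHD1, against -0.04, 0.043 and -0.0067 on replicates 1, 2 and 3 labelled HEK-CT. Over all tested probe sets the same 3 arrays labelled HEK-BAHD1 had distances of -0.013, 0.013 and 0.0067. Without HEK-BAHD1 replicate 1, 12 members were higher and 1 was lower. Over all 21062 tested probe sets, that fit called 931 higher and 646 lower, against 1430 and 1345 with every array. By the supplement, a HEK-BAHD1 replicate 1 shared its passage with the control line, but its replicate numbers are not tied to those of the arrays. The part of passage in these values was not tested.

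Of the 9 members called higher, 5 lie on chromosome 10 (PFKP, PFKFB3, DDIT4, MXI1 and BNIP3), where 7 members were measured. HK1 and P4HA1 are the other 2, and neither was called. Of the 28 members elsewhere, 4 were called higher. Of all 701 tested probe sets on chromosome 10, 8.42% were called higher and 7.28% lower, with a median log2 difference of 0.013, beside 6.79% and 6.39% over all chromosomes. Of the wider pathway, HIF1AN and JMJD1C also lie on chromosome 10 and were called lower, while HKDC1, CUL2 and PPP1R3C on that chromosome were not called.

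HIF binds a short core, ACGTG or GCGTG, in its target genes. Both spellings were searched on both strands in the 250 bases before each annotated gene start (RefSeq, GRCh38.p14), where ACGTG overlaps the E-box CACGTG that MYC and other factors bind. A core was present before 33 of 57 starts of the 31 members matched (57.9%), and before 43.2% of all 35116 starts. Counted by gene, with a core before at least 1 start, it was present in 25 of the 31 members (80.6%) and in 47.4% of all 27305 genes. The order of the classes depended on this choice. By start, a core was present before 17 of 34 starts of glycolytic enzymes and 14 of 19 starts of other HIF targets (73.7%), and by gene in 12 of 14 enzymes (85.7%) and 11 of 14 other HIF targets (78.6%). Members called higher had it before 12 of 22 starts (54.5%) and members not called before 20 of 34 (58.8%), while by gene it was present in 8 of 8 members called higher and 16 of 22 not called (72.7%). A gene with more starts has more chances of a match. SLC2A3, VEGFA, BNIP3L and NDRG1 were not matched. A match of letters is a description and no evidence of binding.

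The stretches below are 60 bases from the most upstream start of each gene, printed 5′ to 3′ on the strand of the gene with the cores in capitals. They were chosen to set called members beside LDHA, a well known HIF target that narrowly missed the call. BNIP3, called higher, had 6 core matches, all within the stretch shown (chr10:131982015-131982074, minus strand), of which CACGTG is read on both strands. HK2 (chr2:74834048-74834107, plus strand) had 3 matches, 2 of them in the stretch shown, and LDHA (chr11:18394455-18394514, plus strand) had 5, with 3 shown. DDIT4 (chr10:72273771-72273830, plus strand) had 3, with 1 shown, and PFKFB3 (chr10:6144725-6144784, plus strand) had 1, which is shown. ADM (chr11:10304944-10305003, plus strand), called lower, also had a core. PFKM, PFKP, PDK1 and MXI1 had none before their most upstream start.
BNIP3: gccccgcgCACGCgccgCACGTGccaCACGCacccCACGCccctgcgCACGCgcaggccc
HK2: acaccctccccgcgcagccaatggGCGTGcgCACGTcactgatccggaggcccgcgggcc
DDIT4: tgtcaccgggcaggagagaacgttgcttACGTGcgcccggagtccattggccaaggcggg
PFKFB3: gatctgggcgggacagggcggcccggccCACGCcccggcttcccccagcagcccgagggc
LDHA: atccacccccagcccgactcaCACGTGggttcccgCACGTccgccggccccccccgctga
ADM: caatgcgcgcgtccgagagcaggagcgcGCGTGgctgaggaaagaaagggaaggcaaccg

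Genes next to these in metabolism and in the hypoxia response were read from 5 further lists. Of 22 other glycolytic isoenzymes, regulators and glucose carriers, 2 were called, both higher, the carriers SLC2A6 and SLC2A12, with log2 differences of 0.53 and 0.32. Of 15 genes of pyruvate fate, 2 were called, both higher, PDK2 and PDK3 as given above. Of 19 genes of the pentose phosphate pathway, glycogen and gluconeogenesis, 1 was higher and 1 lower, the phosphoglucomutase PGM1 at 0.46 and the glycogen branching enzyme GBE1 at -0.34. The share called in these 3 lists was 9.09%, 13.3% and 10.5%, beside 13.2% of all tested probe sets.
Of 16 genes of the oxygen-sensing machinery, 2 were lower and 0 higher, so that 12.5% were called, beside 13.2% of all tested probe sets. At an unadjusted p under 0.05, 5 were lower and 0 higher, beside 14.8% and 14.5% of all tested probe sets. The LPE test called 3 lower and 0 higher, beside 7.36% and 6.22%. The 2 genes called by limma were HIF1AN, the asparaginyl hydroxylase that restrains HIF activity, at -0.22, and CITED2, which competes with HIF for its coactivators, at -0.34. The others lower at an unadjusted p under 0.05 (limma) were EP300, CREBBP and RBX1, at -0.23, -0.27 and -0.22. Of 37 further HIF targets, 5 were higher and 3 lower, or 21.6%. The largest difference was that of CA12, a carbonic anhydrase, with a log2 signal of 6.99, 7.15 and 7.06 on the arrays labelled HEK-BAHD1, against 6.10, 6.31 and 6.31 on those labelled HEK-CT. Its log2 difference was 0.83 (standard error 0.078, adjusted p = 0.00132 from limma). STC1, a secreted glycoprotein, was lower, with 4.43, 4.54 and 4.56 on the arrays labelled HEK-BAHD1, against 5.18, 4.97 and 4.90 on those labelled HEK-CT. Every STC1 value lay below the array medians, 5.46 to 5.56, so its signal was dim. Higher were also ZNF395, a transcription factor, at 0.46 and LOX, the collagen crosslinking lysyl oxidase, at 0.43. The median over the 37 was 0.037.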

How the data were processed

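The authors processed the arrays with RMA (background correction, normalization across arrays and 1 summary per probe set) and deposited log2 values. The version of RMA and the genome build of the array are not given in the sources used here. The series number differs from that stated in the paper, but the lines and replicates match. Array medians ranged from 5.46 to 5.56, and a shift common to a whole array could therefore persist.

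Of 28869 probe sets, 19310 named 1 gene, 1752 several and 7807 none in the platform annotation, and symbols were updated through gene identifiers to RefSeq. The 21062 naming at least 1 gene were fitted without a block, using R 4.3.3 and limma 3.58.1. Each of the 35 members had a single such probe set. The LPE test of the study's methods was not installed and was written anew (100 intensity bins, a spline with 10 degrees of freedom) as an alternative. The 14 alternatives were this test, centring, quantile normalization again, removal of the dimmest 30%, all probe sets, a trended robust limma fit, the replicate number as a block, no threshold on medians, and each of the 6 arrays left out. Both tests were tested on simulated arrays with known changes.

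Every member was named, with values per array for those called and for the HIF subunits, EGLN1, EGLN3, VEGFA and LDHA. Values per array were also given for SLC2A1, HK1, GPI, PFKFB4 and KDM3A. Of each further list, up to 4 called genes were named by size of difference, besides genes named for their chromosome, family or unadjusted p. Members and lists were chosen with earlier results of these data known. The related pairs, the windows of sequence and the genes set beside them were chosen after their values were seen. With 3 arrays a line, precision is limited.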

Additional observations from a re-analysis of the deposited data

How the results depend on the processing

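The 9 higher and 2 lower calls were recomputed under 14 alternatives. The higher count was 7 with all probe sets tested and 12 without the dimmest 30%, and with 1 array left out it ranged from 5 to 12. The lower count stayed at 2 unless an array was left out, when it ranged from 1 to 2. Over all tested probe sets, 1430 were higher and 1345 lower with every array. With 1 array left out they ranged from 806 to 938 higher and from 581 to 937 lower. With the replicate number as a block, 9 members were higher and 2 lower, beside 962 and 829 of all tested probe sets. PFKFB3 and MXI1 were then lost, and EPAS1 and PFKFB4 gained. The deviations of same-numbered arrays correlated at -0.077, 0.074 and -0.038, so the numbers were not taken as pairs. The median of the glycolytic enzymes moved to 0.0483 after centring each array on its median and to 0.125 after quantile normalization again, and ranged from 0.0708 to 0.108 with 1 array left out. The median over all tested probe sets was -0.0367 after centring and 0.0019 after quantile normalization again. The median of the other HIF targets ranged from 0.0633 to 0.155 with 1 array left out.
Signs turned only for genes that were not called. With the arrays centred, GAPDH, LDHB, P4HA1 and P4HA2 were at -0.0033, -0.0067, -0.027 and -0.03, and after quantile normalization again GAPDH, ENO1 and LDHB were at -0.04, -0.023 and -0.0061. With 1 array left out, P4HA1 ranged from -0.0183 to 0.0667, P4HA2 from -0.0467 to 0.0533, ALDOC from -0.00333 to 0.14 and EGLN1 from -0.00833 to 0.177. Fewer arrays leave less precision, and the cause of the other changes was not tested. Over all tested probe sets, 51.5% of calls were higher, against 36.6% with the arrays centred. Each member has 1 probe set, so averaging probe sets gave no other value. Depth in these arrays is the signal over background. The dimmest members, ANKRD37, PFKFB4 and EPAS1, lay near the array medians over all probe sets, 5.46 to 5.56. They lay below the array medians over the probe sets that name a gene, 6.4 to 6.46.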
